A study of Mus musculus with 13 samples.

Results

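The Period and cryptochrome genes encode the repressors of the circadian clock, and 5 of them, Per1, Per2, Per3, Cry1 and Cry2, were followed through 2 days and nights in mouse back skin. They were chosen by symbol among the array probes that carry a single annotated gene symbol, and each had 1 such probe, so the highest-mean probe was the only choice. They are 5 of the 19938 genes named that way, and all 5 were among the 16322 genes bright enough to be tested. All samples were whole back skin of male mice of strain C57Bl6, aged 30 days, and the labels give no mutation, treatment or irradiation for any of them. They call the skin anagen, when hair follicles grow. Lights were on for 12 h and off for 12 h, and chow was freely available. The first pool was taken 2 h after lights on (ZT2, with ZT counting those hours) and the last at ZT50, at 4 h steps. RNA of 3 mice was pooled in equal amounts for each time, which makes 13 pools from 39 mice, with 1 array each. The pools fall into 6 times of day: 3 pools at 2 h and 2 each at 6, 10, 14, 18 and 22 h. The 2, 6 and 10 h pools (7) were taken in the light and the others (6) in the dark.

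In the mouse clock, the transcription factors CLOCK and BMAL1 (encoded by Arntl) bind E-box sequences and drive the Per and Cry genes, whose proteins gather in a complex, enter the nucleus and block CLOCK and BMAL1. Kinases of the casein kinase 1 family mark the PER proteins for breakdown, which helps to end the repression and let a new round begin. PER1 and PER2 carry most of the PER function, with PER3 in a lesser role, and CRY1 and CRY2 are related to light-dependent DNA repair enzymes, whose repair activity they lack. Skin cells run such a clock, and in rodents it times cell division in the epidermis and the hair follicle.

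The starts of 4 of the 5 genes are in the RefSeq promoter table (GRCm38.p6). The 250 bases before each start are shown here for the clock elements they hold. A link of these elements to the timing of the waves was not tested. Each window runs 5′ to 3′ on the gene's own strand. Capitals mark the E-box CACGTG and its weaker form CACGTT, both bound by CLOCK and BMAL1, and the D-box TTATGTAA, bound by DBP, TEF, HLF and their antagonist NFIL3. Matches on either strand were counted.
Per1 (chr11:69098699-69098948, plus strand): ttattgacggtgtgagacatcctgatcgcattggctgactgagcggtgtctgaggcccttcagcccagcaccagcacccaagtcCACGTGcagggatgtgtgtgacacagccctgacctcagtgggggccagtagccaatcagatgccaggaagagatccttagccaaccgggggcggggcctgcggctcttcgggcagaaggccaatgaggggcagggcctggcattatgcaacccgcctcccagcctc
Per3 (chr4:151044666-151044915, minus strand): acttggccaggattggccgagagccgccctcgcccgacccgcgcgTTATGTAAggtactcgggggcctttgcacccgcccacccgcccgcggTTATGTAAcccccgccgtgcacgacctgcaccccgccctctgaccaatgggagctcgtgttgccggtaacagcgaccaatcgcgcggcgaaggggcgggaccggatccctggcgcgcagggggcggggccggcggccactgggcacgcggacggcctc
Cry1 (chr10:85185055-85185304, minus strand): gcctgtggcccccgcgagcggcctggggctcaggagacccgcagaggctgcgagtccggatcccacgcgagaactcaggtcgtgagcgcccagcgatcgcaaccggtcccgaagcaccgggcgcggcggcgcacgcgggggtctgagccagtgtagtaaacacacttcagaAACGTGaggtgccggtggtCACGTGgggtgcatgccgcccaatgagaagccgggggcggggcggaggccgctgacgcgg
Cry2 (chr2:92434070-92434319, minus strand): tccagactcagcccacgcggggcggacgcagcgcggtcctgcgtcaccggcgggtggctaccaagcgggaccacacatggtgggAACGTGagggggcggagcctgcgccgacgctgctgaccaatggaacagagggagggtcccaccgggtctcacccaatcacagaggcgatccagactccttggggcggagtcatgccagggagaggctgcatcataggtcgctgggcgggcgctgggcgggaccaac

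The Per1 window holds 1 E-box, 166 bases before the start. The Cry1 window has 1 E-box 60 bases before the start and 1 CACGTT, on the other strand, 79 bases before it. Cry2 has 1 CACGTT, also on the other strand, 166 bases before its start. Of all 32851 windows of this length in the table, 6.02% hold CACGTG and 3.85% hold CACGTT. Per3 has neither, but has 2 copies of the D-box TTATGTAA, 205 and 158 bases before its start. One copy or more is found in 0.819% of the windows, and at least 2 copies in 6 windows (0.0183%). Of those 6 genes, 4 were tested here. Per3, itself a member, is the 1 that passed the test for a daily rhythm described further on. Over all genes 0.141% passed it, and so small a count says nothing of a link between the D-box and a rhythm. A second start of Per1 (chr11:69099902-69100151) has no E-box or D-box in its window. The D-box form TTACGTAA, the cyclic AMP response element TGACGTCA and the palindromic glucocorticoid receptor site are in none of the members' windows (0.113%, 1.55% and 0.387% of all windows). The core TGACG, a part of the cyclic AMP response element, is in 4 of the 5 windows, 246 and 132 bases before the starts of Per1, 8 before that of Cry1 and, on the other strand, 209 before that of Cry2, and in 17.8% of all windows. The core AGGTCA of the REV-ERB and ROR site is in the E-box window of Per1 alone (14% of all windows). A match is only a run of letters, and a missing one says nothing of sites outside these windows.

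Markers of skin were bright throughout. The keratinocyte markers (6 of 6 measured, among them Krt5 and Krt14) and the hair shaft keratins (5 of 6 measured) had mean log2 levels that stayed within a 1.20-fold and a 1.24-fold range, and Krt5 lay between 13851 and 15797 intensity units. Mean skeletal muscle markers ranged 2.07-fold, from ZT2 to ZT30, and the 6 hepatocyte markers stood highest in the ZT46 pool, where albumin was at 10035 against a median of 2597 over the pools. Without that pool the same count of members passed the rhythm test described next. Array medians lay between 440.0 and 483.2. P-values measure the spread between pools, since single mice cannot be seen. Where a wave is fitted, that spread includes any departure of the pools from the shape of the wave. In whole skin, fewer cells of a type and less RNA per cell cannot be told apart.

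Per3 and Per2 carried the largest waves of the set, and the cryptochromes had shallow ones. A 24 h cosine wave with linear time was fitted to each gene on the log2(intensity + 16) scale, and amplitude is the height of the wave above its mean. Per3 and Per2 rose and fell with an adjusted p of 3.60e-04 each in limma over all 16322 genes, in a tissue where 0.141% of genes passed, and they ranked 3 and 4 by p. Per1, Cry1 and Cry2 did not pass (adjusted p = 0.476, 0.237 and 0.141), though all 5 had an unadjusted p under 0.05, as did 9.54% of all genes. So 2 of the 5 members passed, 1 with a fitted peak in the light and 1 in the dark. The median amplitude of the 5 was 0.38 log2, against 0.06 over all genes tested. All 5 members had a fitted peak-to-trough fold of at least 1.33, which 2.23% of all genes reach. Adding the skeletal muscle and adipocyte marker means as covariates left 1 member called. Per2 kept an adjusted p of 0.0345, while Per3 had an amplitude of 0.84 ± 0.11 (SE), against 0.78 ± 0.07 without them, and an adjusted p of 0.0664. The mean of the 7 muscle markers had a fitted 24 h amplitude of 0.31 log2 with a peak at 9.3 h, and its correlation over the 13 pools was 0.39 with Per3 and 0.39 with Cry2. The mean of the 6 adipocyte markers ranged 1.33-fold, from ZT26 to ZT34, with an amplitude of 0.08 log2 and a peak at 13.4 h, beside 13.3 h for Per2, and its correlation was 0.59 with Per2, 0.58 with Cry2 and 0.45 with Per3. Of the markers not in that fit, the endothelial mean had a correlation of -0.54 and the immune mean of 0.44 with Per2. These correlations are descriptions over pools that share one daily cycle. The part of tissue makeup in the waves was not tested beyond this fit.

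**Figure D1:**
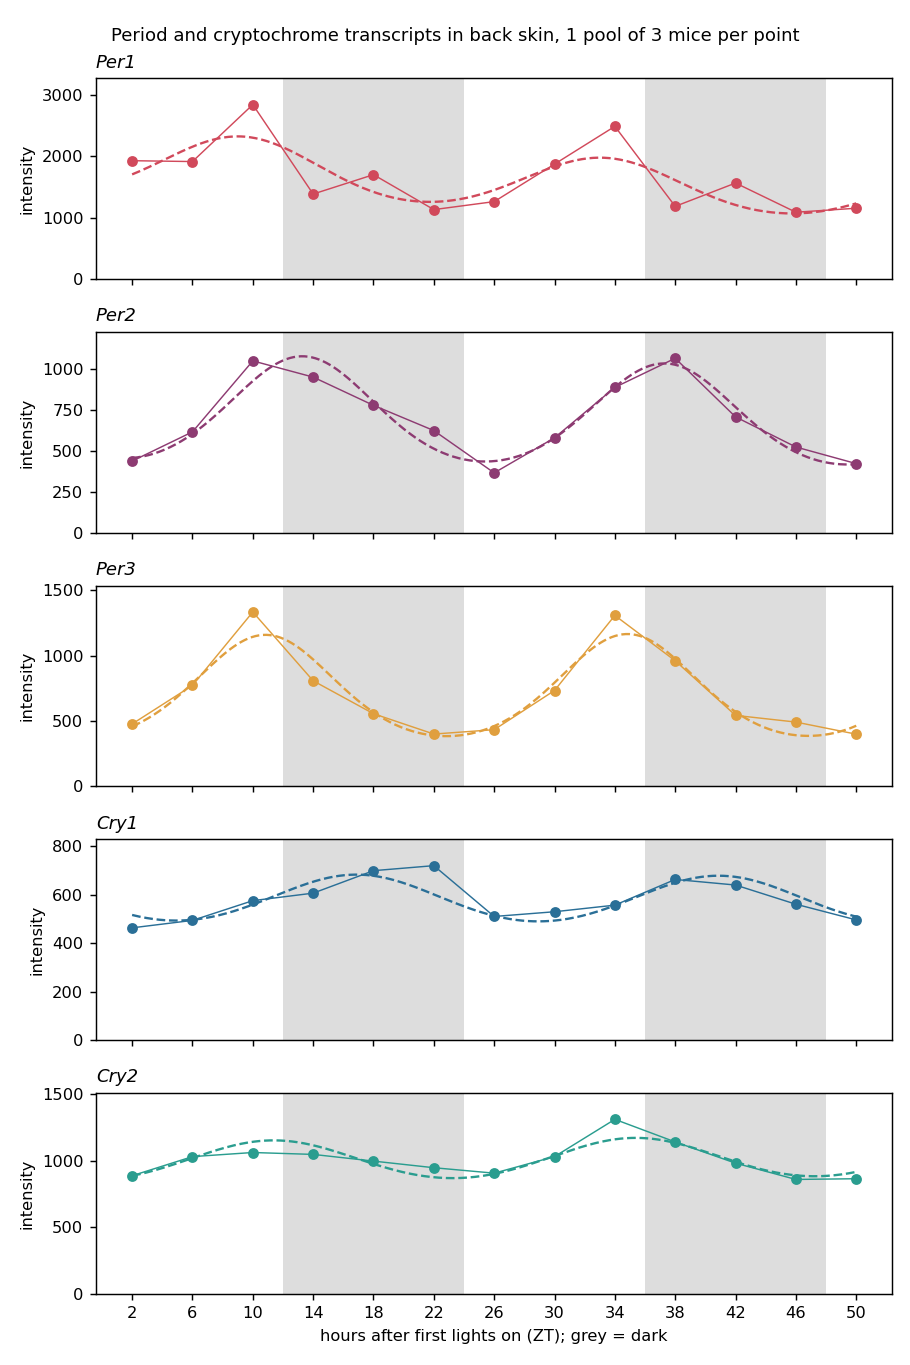
Deposited intensity (linear scale, from 0) of each member against hours after the first lights on. Points are single pools of 3 mice joined by solid lines, dashed lines are the fitted 24 h wave with linear time, and grey marks the dark. Per2 and Per3 trace 2 clear waves, Per1 has a spike at ZT10 and ZT34 above its fitted wave, and Cry1 and Cry2 swing by at most 1.55-fold between their lowest and highest pools.

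Per1 answers hormones and other signals as an immediate early gene, besides the clock. Its 10 h pools were at 2839 and 2485 intensity units, its 6 h pools at 1912 and 1870, and its 2 h pools at 1926, 1260 and 1152. In the dark it was at 1383 and 1183 at 14 h, 1698 and 1562 at 18 h and 1130 and 1087 at 22 h. The 10 h pools lay above all 11 others, and the first pool of the series, ZT2, stood apart from the other 2 h pools. The level thus dropped within 4 h of its top, by 1.03 log2 on the first day and by 1.06 on the second, then was higher again at 18 h on both days, by 0.29 and 0.40 log2. The fitted wave had an amplitude of 0.38 ± 0.11 (log2, SE, 13 pools), a fold of 1.69 and a peak at 9.4 ± 1.0 h, and with linear time took up 60.5% of the variance between pools. When hour of day entered the limma fit as 6 levels without a wave, the adjusted p of Per1 was 0.0771. That fit called 0.0551% of genes, 9 in all, with Per2 (0.0169) and Per3 (0.00914) among them. Cry1 and Cry2 had an adjusted p of 0.998 each in the same limma fit. Per1 also had the largest fitted drift of the members, -0.23 ± 0.13 log2 per 24 h (SE), with an adjusted p of 0.620.

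Per2, the Period protein most needed for a steady clock, had its top spread over late day and early night. It stood at 438, 366 and 423 at 2 h, 617 and 581 at 6 h, and 1051 and 889 at 10 h. The 14 h pools were at 952 and 1067, followed by 779 and 708 at 18 h and 625 and 524 at 22 h. The 10 and 14 h pools overlapped and lay above all others, and the 3 pools of 2 h lay below all others. On the first day the top was at ZT10 and on the second at ZT38. The amplitude was 0.62 ± 0.05 (log2, SE), the fold 2.38 with an interval of 2.02 to 2.79 (95%), and the peak 13.3 ± 0.4 h. The residual SD around the wave was 0.16 log2, and the correlation of the 6 hours between the days was 0.96.

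Per3 had the widest swing, 3.34-fold from its lowest to its highest pool. Its 10 h pools reached 1335 and 1309, with 808 and 962 at 14 h and 773 and 734 at 6 h. It stood at 557 and 544 at 18 h, 401 and 493 at 22 h, and 478, 434 and 400 at 2 h. The 10 h pools stood clear of all others on both days, and the pools of 22 h and 2 h overlapped. The amplitude was 0.78 ± 0.07 (log2, SE), the fold 2.94 with an interval of 2.41 to 3.60 (95%), and the peak 10.8 ± 0.3 h. By amplitude Per3 ranked 5 and Per2 9 of 16322 genes. Time of day held 97.5% of the variance of Per3 between pools and 96.0% of that of Per2, against 84.9% for Per1.

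**Figure D2:**
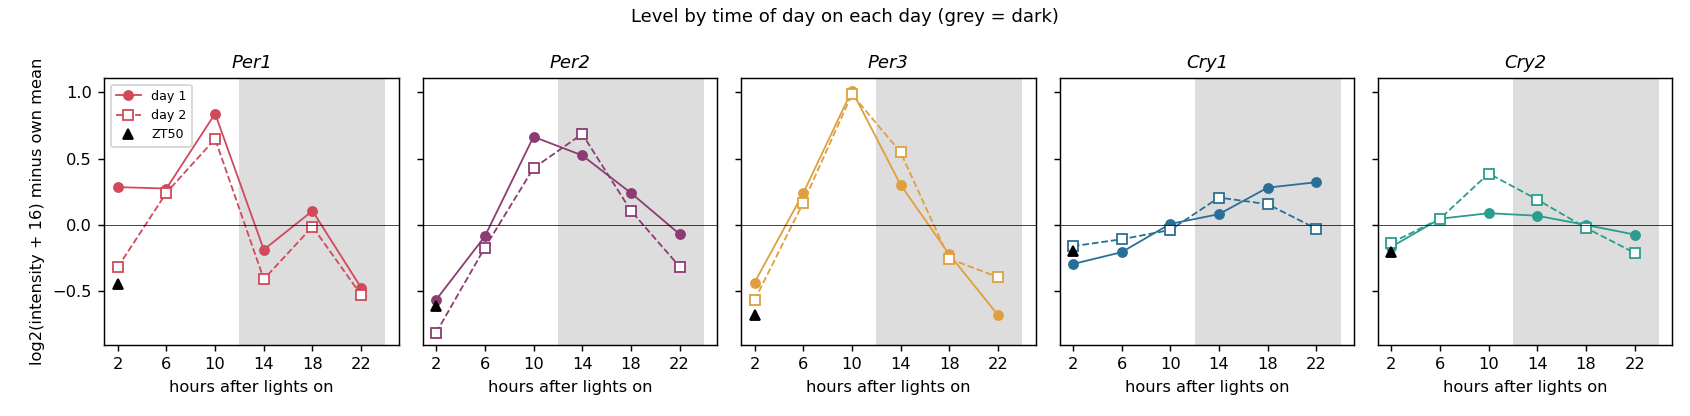
Level of each member as log2(intensity + 16) minus its own mean over the 13 pools, against the time of day, with day 1 as filled circles, day 2 as open squares and the ZT50 pool as a black triangle. Grey marks the dark. The Per3 curves of both days run together with a top at 10 h, the Per1 curves both dip at 14 h and are higher at 18 h, and the Cry1 curves part at 22 h.

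Cry1, the stronger repressor of the cryptochromes, had its highest levels at night. It was at 463, 510 and 496 at 2 h, 494 and 530 at 6 h, and 576 and 557 at 10 h. The dark pools were at 607 and 663 at 14 h, 699 and 640 at 18 h, and 720 and 561 at 22 h. All dark pools but ZT46 (561) lay above all light pools, of which ZT10 (576) was the highest. The amplitude was 0.23 ± 0.05 (log2, SE), the fold 1.38 with an interval of 1.20 to 1.58 (95%), and the peak 16.9 ± 0.8 h, with an adjusted p of 0.237 in limma. It ranked 49 of all genes by p. When single pools were left out, the fitted peak lay between 15.8 h (without ZT22) and 17.5 h (without ZT2), and without ZT46, the pool with the high liver transcripts, it was at 17.1 h.

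Cry2, a weaker repressor and the paralogue of Cry1, was lowest around dawn. Its pools were at 886, 905 and 864 at 2 h, 1030 and 1030 at 6 h, 1060 and 1309 at 10 h, 1046 and 1140 at 14 h, 996 and 980 at 18 h, and 946 and 858 at 22 h. The lowest levels of each day lay at 2 or 22 h, and the ZT34 pool stood above the rest. The amplitude was 0.21 ± 0.04 (log2, SE), the fold 1.33 with an interval of 1.19 to 1.49 (95%), and the peak 11.3 ± 0.7 h (adjusted p = 0.141 in limma). Without ZT34 the amplitude was 0.16.

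The order of the fitted peaks was Per1, Per3, Cry2, Per2, Cry1. It was the same in all 26 fits that gave peaks, which are the fit described, 12 alternatives and 13 that each leave out 1 pool. Alternatives that change only the filter, the probes kept or the variance prior could not move a peak, so their agreement adds nothing. From Per1 to Cry1 the peaks lay 7.5 h apart (95% interval 4.2 to 10.9 h). Of the 10 pairs of members, 7 had an interval of the peak difference that excluded 0. The intervals are not adjusted for the number of pairs. Per1, Cry1 and Cry2 did not pass the rhythm test, so only the pair of Per3 and Per2 compares called waves. Neighbours in the order were less clear. Per3 came 1.5 h after Per1 (-1.1 to 4.0 h) and Cry2 0.5 h after Per3 (-1.1 to 2.0 h), so neither pair was set apart. Per2 followed Cry2 by 2.0 h (0.3 to 3.7 h) and Cry1 followed Per2 by 3.6 h (1.9 to 5.2 h). Within the Period genes, Per2 peaked 2.5 h after Per3 (1.5 to 3.5 h) and 4.0 h after Per1 (1.0 to 6.9 h). The paralogues Cry2 and Cry1 peaked 5.6 h apart (3.3 to 7.8 h). These intervals allow for the residuals that a pair of genes shares in the same pools, and come from 9 residual degrees of freedom.

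**Figure D3:**
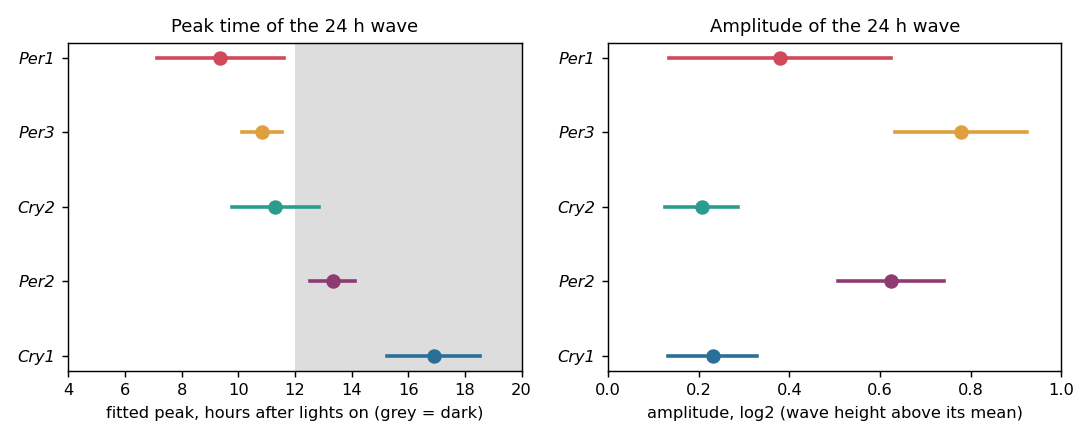
Fitted peak in hours after lights on (left, grey marks the dark) and amplitude in log2 (right) of the 24 h wave for each member, ordered by peak. Points are estimates over the 13 pools and lines their 95% intervals. Per1, Per3 and Cry2 have fitted peaks before lights off with overlapping intervals, of which that of Cry2 (9.8 to 12.8 h) reaches past lights off. The fitted peak of Per2 is at 13.3 h and that of Cry1 at 16.9 h.

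Amplitudes set Per2 and Per3 apart from both cryptochromes. Per3 exceeded Cry2 by 0.57 log2 (95% interval 0.40 to 0.75) and Cry1 by 0.55 (0.34 to 0.76), and Per2 exceeded Cry2 by 0.42 (0.27 to 0.57) and Cry1 by 0.39 (0.25 to 0.54). Per3 also exceeded Per1, by 0.40 (0.12 to 0.68). The other 5 pairs had intervals that held 0, such as Per3 over Per2 by 0.15 (-0.02 to 0.33) and Cry1 over Cry2 by 0.02 (-0.11 to 0.16). Over the 13 pools the profiles of Per3 and Cry2 had a Pearson correlation of 0.87 and a Spearman correlation of 0.91, and those of Cry1 and Cry2 0.27 and 0.27, as a description, since the pools share one daily cycle.

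Light against dark asked whether the members differ between the phases of the lighting. A 24 h wave that peaks near lights off, at 12 h, spreads its top over both phases. The comparison thus says little of a wave in Per3, Cry2 and Per2, with fitted peaks at 10.8, 11.3 and 13.3 h. None of the 5 passed in limma, where 0.00613% of all genes (1 gene) did. At an unadjusted p under 0.05 were 2 members, Cry1 and Per1, beside 12.4% of all genes. Cry1 was 0.32 ± 0.07 log2 (SE) higher in the dark (adjusted p = 0.297), with medians of 652 in the dark and 510 in the light. Per1 was 0.38 ± 0.17 lower in the dark (adjusted p = 0.394), with 1283 against 1912. The light pools of Per1 ran from 1152 to 2839 and took in the whole dark range but for the pools of 22 h. Per2 was 0.42 ± 0.23 higher in the dark (adjusted p = 0.450), Per3 0.17 ± 0.30 lower (0.813) and Cry2 0.01 ± 0.09 lower (0.968). Without ZT34 the sign of Per3 turned (0.03 higher in the dark), and that of Cry2 turned without ZT34 (0.07), ZT22 (0.01) or ZT46 (0.02).

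The waves of the first day and the second were compared over 6 pools each, leaving out ZT50. None of the 5 members passed for a difference between the days in limma, where 2.93% of all genes did. That share of all genes was not stable. Under 3 of 8 alternatives 0 genes passed, as in 8 of the 13 fits that leave out 1 pool. Those pools were all of the first day but ZT6, and ZT26, ZT30 and ZT34 of the second. Leaving out ZT46 gave 1 gene and leaving out ZT42 gave 1582. The fit without ZT50 repeats the comparison, which does not use that pool. In the comparison with all 12 pools, 0 members against 26.6% of genes had an unadjusted p under 0.05. Amplitudes on the first and second day were 0.43 and 0.43 log2 for Per1, 0.55 and 0.68 for Per2, and 0.77 and 0.75 for Per3. Cry2 had 0.11 and 0.28, the lowest adjusted p of the 5 (0.205), and Cry1 0.28 and 0.18 (0.447). The largest change of a member between the days at one hour was that of Per1 at 2 h, 0.61 log2. Paired by hour of day, a comparison added after the data were seen, none of the members passed for a difference in level between the days, where 0% of all genes passed in limma and 4.72% had an unadjusted p under 0.05. Per1 was lower on the second day at 6 of 6 hours, by 0.20 ± 0.08 log2 (SE, adjusted p = 0.976), and Per2 at 5 of 6, by 0.13 ± 0.06 (0.976). Without the pair at 2 h, the second day minus the first was -0.12 log2 for Per1. Per3, Cry1 and Cry2 differed by at most 0.05 log2. A p that misses the threshold does not show that the days were alike.

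The genes with the profiles most like each member were taken by Pearson correlation over the 13 pools among all genes tested, and the correlations are a description of 13 points that share a daily cycle. Per3 was closest to the D-box factors Tef (0.96), Dbp (0.92) and Hlf (0.89), and the gene most opposed to it was Arntl (-0.94). Dbp reached 2652 and 2738 at ZT10 and ZT34, the pools in which Per3 also had its top on each day. Per2 was closest to Cys1, a cilium gene (0.89), Tspan4, a tetraspanin gene (0.89), and Fmo1, a flavin monooxygenase gene (0.88). For Cry2 the closest were Pigw, of glycolipid anchor synthesis (0.88), Tef (0.87) and Bcat2, of branched-chain amino acid breakdown (0.86). Cry1 was closest to the lipase gene Pnpla3 (0.87), the translation factor gene Eif4a1 (0.84) and Fam110c (0.83). Per1 was closest to the kinase gene Ptk2b (0.91), the taurine transporter gene Slc6a6 (0.90) and R3hcc1 (0.87), whose fitted folds were 1.06, 1.21 and 1.11. Of these neighbours, Tspan4, Fmo1, Tef and Dbp had a rhythm with an adjusted p under 0.05.

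**Figure D4:**
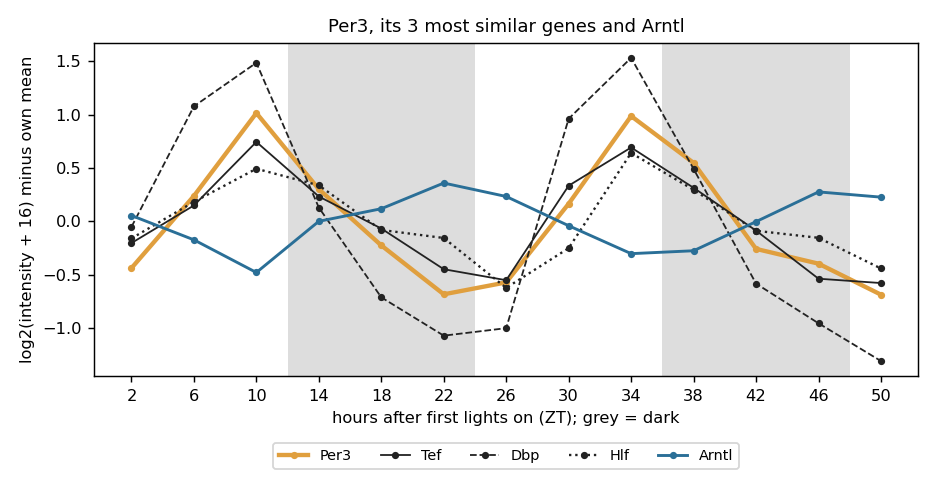
Profiles of Per3 (thick orange), its 3 most similar genes Tef, Dbp and Hlf (black lines) and Arntl (blue) as log2(intensity + 16) minus each gene's own mean, against hours after the first lights on, 1 pool of 3 mice per point. Grey marks the dark. Per3 and the D-box factors top out at ZT10 and ZT34, where Arntl is low.

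Among the other clock genes, 5 of the 15 measured that are activators, ROR element receptors, D-box factors or other E-box repressors passed. Over all genes the share was 0.141%. None of the genes that act on the PER and CRY proteins passed, which in lists this short is near that share. Of 3 measured activators, Arntl rose in the late night (amplitude 0.31 ± 0.05 log2, SE, peak 22.5 h, adjusted p = 0.0287), and Clock had 0.17 ± 0.05 (0.452). The receptors that compete at the ROR element included Nr1d1 and Nr1d2, called with amplitudes of 1.25 and 0.87 and peaks at 7.2 and 9.0 h, and 2 of 4 measured passed. Of 4 D-box factors, Dbp (1.27, peak 9.7 h) and Tef (0.58, 10.9 h) passed, and Hlf had 0.42 (adjusted p = 0.0750). Of 4 other E-box repressors none passed, Ciart having the largest amplitude at 0.37 ± 0.10 (0.442) and Bhlhe41 0.21 ± 0.06 (0.451). None of 6 kinase genes of the PER proteins passed, with a median amplitude of 0.02 (Csnk1d 0.02, Csnk1e 0.04). Of 8 measured genes for turnover of PER and CRY proteins 0 passed (median 0.03), Usp2 having the largest at 0.08. Of 10 measured partners of the complex 0 passed, with a median of 0.05 and Prkaa2 the largest at 0.14 ± 0.09. Of the DNA damage signalling genes Tipin, Chek1, Atm and Atr none passed, with amplitudes of 0.03, 0.11, 0.02 and 0.03. These values stand beside 0.06 over all genes.

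**Figure D5:**
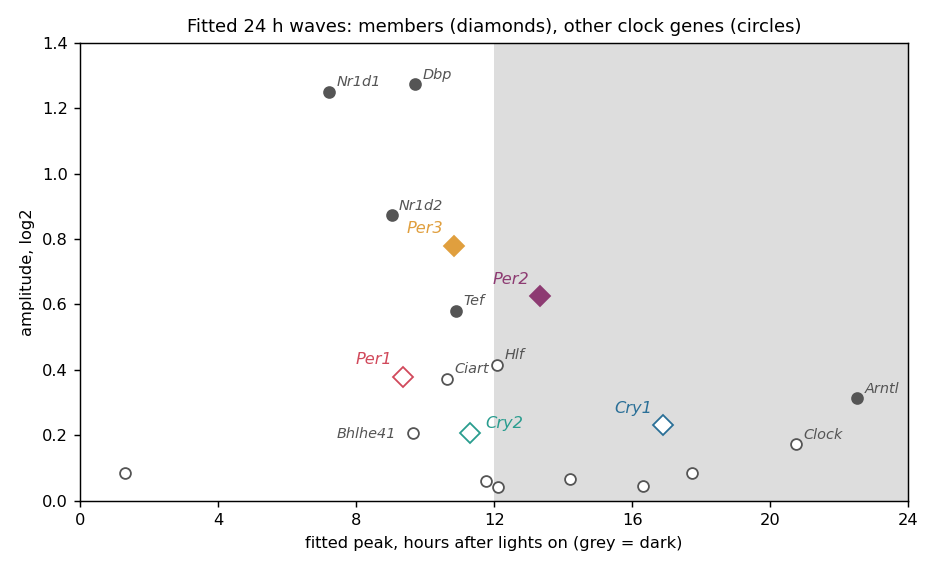
Amplitude (log2) against fitted peak (hours after lights on, grey marks the dark) of the 24 h wave for the members (coloured diamonds) and the measured clock activators, ROR element receptors, D-box factors and other E-box repressors (grey circles, named above an amplitude of 0.1). Filled symbols passed at an adjusted p under 0.05 and open ones did not. Per3 and Per2 lie among the called genes from Nr1d1 at 7.2 h to Arntl at 22.5 h, while Per1, Cry1 and Cry2 are open.

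None of the listed inputs to the Period genes passed, where 0.141% of all genes did. Of 8 measured genes for signals to Per1 and Per2, such as the CREB pathway genes Creb1 and Crtc1, the largest amplitude was that of Crtc1, 0.09 ± 0.05 (log2, SE). Of 9 measured glucocorticoid-induced genes, a class that Per1 also belongs to, 0 passed, with a median amplitude of 0.16. Zbtb16 had 0.46 ± 0.14 (adjusted p = 0.466) and Tsc22d3 0.38 ± 0.07 (0.112), and Fkbp5 had the lowest adjusted p of the list (0.0566) with 0.29 ± 0.05. The fitted peaks of Dusp1 (9.1 ± 1.2 h, SE) and Klf9 (9.5 ± 0.9 h) lay within the error of that of Per1 (9.4 ± 1.0 h). Those of Tsc22d3 (12.4 ± 0.7 h), Zbtb16 (12.5 ± 1.2 h) and Fkbp5 (14.3 ± 0.7 h) were later as estimates. Their differences from Per1 were not tested. Of 9 measured clock outputs 2 passed, Fmo2 (0.43, peak 15.1 h) and Tspan4 (0.34, 12.5 h). Wee1, a kinase that holds cells before mitosis, had 0.15 ± 0.04 with a fitted peak at 14.1 h (adjusted p = 0.404), beside the Per2 peak at 13.3 h.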

How the data were processed

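Total RNA of 13 pools was labelled with biotin for Affymetrix whole-transcript arrays, 1 per pool, per the labels' protocols. The deposited table gives intensity of each probe set, and its range shows a linear scale. The submitters' processing notes name Affymetrix Expression Console 1.1.1 and PLIER 2.0, with no role given. How the arrays were scaled to each other, and a genome build, are not given in the sources used here. No detection call was used here, so nothing is said of background.

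The table holds 35557 probes, of which 21789 have 1 gene symbol, 1621 several and 12147 none here. Values became log2(intensity + 16), so folds of dim genes are understated. Probes in the lowest 25% by mean (under 7.61) were left out, and 1 probe per gene was kept, 16322 in all. limma 3.58.1 (R 4.3.3) fitted cosine and sine of 24 h with linear time, dark minus light with linear time, the interaction of day with the wave and, with hour of day as a block, second day minus first. Calls are at a Benjamini-Hochberg adjusted p under 0.05 over all genes. Errors of peaks and amplitudes come from the delta method. Promoter windows are RefSeq's, matched by symbol for 4 of 5 members.

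The members, lists, tests and alternatives were chosen with earlier results of these data known. Of each list, called genes or the 2 largest amplitudes were to be named, and Csnk1d, Csnk1e, Bhlhe41, Hlf, Creb1, Fkbp5, Klf9, Dusp1, Usp2, Prkaa2 and Wee1 also serve as examples chosen after their values were seen. For likeness, 3 genes per member were named, passing over predicted genes, RIKEN clones, small RNAs and odorant receptor families. Tests ran first on simulated data of 16322 genes with independent noise. Figures used matplotlib 3.10.9.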

Additional observations from a re-analysis of the deposited data

How the results depend on the processing

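The 2 called members stayed at 2 in all 13 fits that leave out 1 pool (lowest and highest 2 and 2) and in 13 of 14 other alternatives. These were no filter, a 50th percentile filter, pseudocounts of 1 and 64, quantile normalization, centring on array medians, all probes, no linear time, cycle as a factor, an intensity trend with robust prior, the 24 and 12 h waves together, times of day as a factor and an adjusted p under 0.01. With the muscle and adipocyte covariates 1 was called, and the fitted peak of Cry1 moved to 18.1 h. Light against dark and first against second day kept 0 called members in every alternative run, with lowest and highest 0 and 0 without single pools. For the days, leaving out ZT50 changes nothing, since that comparison does not use it. The hours from the Per1 to the Cry1 peak lay between 7.4 and 8.3 over the alternatives and between 6.4 and 8.1 without single pools. Without single pools, dark minus light of Cry2 lay between -0.0814 and 0.0726 log2, and that of Per3 between -0.400 and 0.0341. The adjusted p over the alternatives and single pools left out reached 0.0345 at most for Per2 and 0.0664 for Per3. Calls over all genes ranged from 13 (without ZT18) to 30 (without ZT46) for the rhythm, with 8 under the muscle and adipocyte covariates and 15 with no filter. For the waves of the days, 478 genes were called, 0 under quantile normalization, centring or no filter, 5 with the 50th percentile filter, and from 0 to 1582 (without ZT42) without single pools. The labels carry no replicate numbers, so the one pairing possible was that of the days by hour. That comparison, added after the data were seen, kept 0 called members and 0 called genes in 9 alternatives, among them the fit with no block for the hour, and without single pools (lowest and highest 0 and 0). Leaving out a pool there drops its pair. Without single pools the paired difference lay between -0.0598 and 0.0374 log2 for Cry1, between -0.00168 and 0.0860 for Cry2 and between -0.00431 and 0.0798 for Per3. For Per1 it lay between -0.239 and -0.124, and for Per2 between -0.190 and -0.108. The number of arrays, 13, limits the precision.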

Other observations

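Per1 was higher at 18 h than at 14 h on both days, by 0.29 and 0.40 log2, and of all 16322 genes 14 (0.0858%) were higher on both days by at least the smaller of these steps. This step was picked after the values were seen. A 12 h wave added to the 24 h one had an amplitude of 0.22 log2 in Per1, which ranked 704 of 16322 by its p and did not pass in limma, so a second wave in Per1 was not shown. Over all genes 0 passed for it, with 290 at an unadjusted p under 0.05. Of the members Per3 ranked highest for that added wave (amplitude 0.19 log2, rank 26 of 16322 by p). The other 3 tested genes with at least 2 copies of TTATGTAA before their start were Alb, Il1rl2 and Smim10l1, with fitted 24 h amplitudes of 0.39, 0.04 and 0.06 log2 and adjusted p of 0.844, 0.893 and 0.849. The amplitude of Alb, the albumin gene, had an SE of 0.35, and its level in the ZT46 pool was 10035 against a median of 2597. Of 87 tested genes with at least 1 copy, Per3 was the 1 called, and their median amplitude was 0.06, as over all genes.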
